A study of Mus musculus with 16 samples.

Results

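Integrins are the receptors by which cells hold on to the matrix around them, and laminins are matrix proteins of the basement membrane that some integrins bind. The 36 mouse genes described here were chosen by symbol among the 43629 genes of the polyA read tables: 18 integrin alpha chains, 8 integrin beta chains and 10 laminin chains. They were measured by polyA RNA sequencing in AFT024 and BFC012, stromal cell lines from the fetal liver of C57BL/6 mice at 14.5 dpc (days after mating), and in the small membrane vesicles, or exosomes, that each line secreted. In the labels the HSPC (hematopoietic stem and progenitor cell) supporting capacity of AFT024 is supportive and that of BFC012 is non-supportive. All 4 groups thus share strain background, tissue and age, and differ in line and in sample type. There was 1 line of each kind, so line and support cannot be told apart. RNA extractions were pooled and split into technical replicates, which the authors merged into 1 value per group. No group therefore has a spread between replicates, and no test between groups was made.

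An integrin is a pair of 1 alpha and 1 beta chain, and the pairing sets what the receptor binds. The beta1 chain pairs with many alpha chains, among them alpha3, alpha6 and alpha7, which bind laminin, and alpha5, which binds fibronectin. The alphav chain pairs with beta1, beta3, beta5 and beta8 and binds matrix proteins with an RGD motif or latent TGF-beta. Hematopoietic stem and progenitor cells in the fetal liver carry integrins of their own, and stromal cells lay down the matrix that these bind. A laminin is a trimer of 1 alpha, 1 beta and 1 gamma chain.

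The recovered reads numbered 39385534 in AFT024 cells, 35874383 in BFC012 cells, 9038471 in AFT024 exosomes and 16344350 in BFC012 exosomes. The stromal label was read against marker genes. Mesenchymal stromal markers (7 genes) summed to between 11709 and 238746 reads, although Thy1 had 0 reads in 3 groups and 1 read in AFT024 cells. Col1a2 of this list was also scarce in BFC012, with 12 reads in cells and 5 in exosomes, against 1717 and 171 in AFT024. Erythroid markers (4 genes) summed to 0 to 3 reads, endothelial markers (5 genes) to 9 to 33 and hepatocyte markers (5 genes) to 4 to 41. Leukocyte markers (9 genes) summed to 30 to 210 reads and platelet markers (5 genes) to 212 to 1198. Each of these lists holds an integrin gene described here, Itgb2 and Itga2b, and Itga2b made up most of the platelet sums. Epithelial and mesothelial markers (8 genes) summed to 3757 reads in cells of AFT024 and 16879 in those of BFC012, and to 591 and 1722 in the exosomes of the lines. The sum was thus highest in BFC012 cells, where Upk3b had 13308 reads and Wt1 1226, against 5 and 0 in AFT024 cells. Others of the list went the opposite way, such as Msln with 3699 and 1467 reads in the cells of AFT024 and BFC012.

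Reads of the 36 integrin and laminin genes made up 0.351% of all reads in cells of AFT024 and 0.276% in those of BFC012, against 0.0674% in AFT024 exosomes and 0.0672% in BFC012 exosomes. Their share was thus lower in the exosomes of both lines than in the cells. Of the 36 genes, 17 had 100 or more reads summed over the groups and are described one by one. These are 8 alpha integrins, 5 beta integrins, Lama5, Lamb1, Lamb2 and Lamc1. Levels are given as reads per kilobase of exon and per 1000000 reads (RPKM), computed from the recovered reads. Ratios between groups use reads scaled by size factors, with an exact 95% interval that covers counting error only. Scaling by library size would multiply each exosome-to-cell ratio by 0.747 in AFT024 and 0.706 in BFC012, which moves the median of all genes from 0.823 to 0.615 and from 0.913 to 0.645. In bulk samples such as these, fewer cells of a type and less RNA per cell cannot be told apart.

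**Figure D1:**
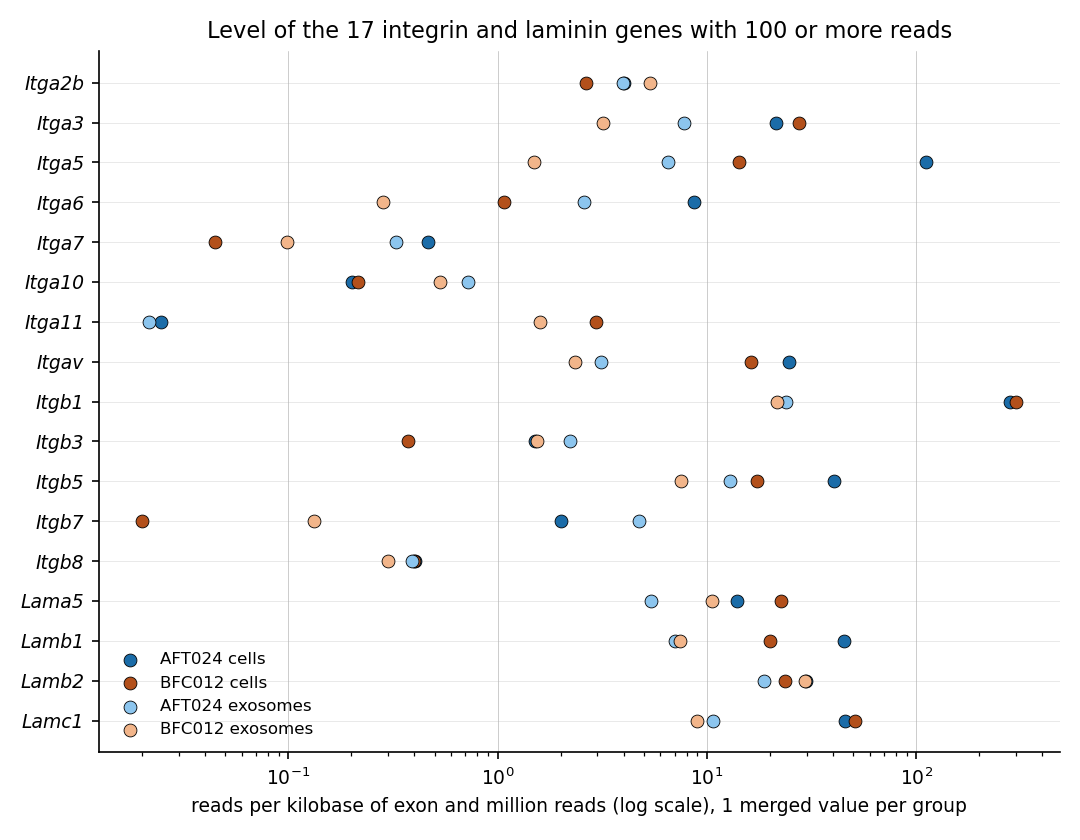
Level of each of the 17 genes with 100 or more reads, in RPKM on a log axis, with 1 point per group. Itgb1 has the highest level in both lines' cells, at 279 and 299.6, and Itga11 and Itgb7 show the widest gaps between the lines. Itga11 passed the read minimum only through BFC012 and Itgb7 only through AFT024, which fixed a gap between the lines for both.

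Itgb1, the common beta1 chain, was the most abundant member in both lines' cells, and the lines were close. It had 44902 reads in AFT024 cells, 43863 in BFC012 cells, 877 in AFT024 exosomes and 1448 in BFC012 exosomes, which are 279, 299.6, 23.8 and 21.7 RPKM. The AFT024-to-BFC012 ratio was 0.953 in cells (95% interval 0.940 to 0.966) and 1.06 in exosomes (0.972 to 1.15). Cells and exosomes were far apart in both lines: the exosome-to-cell ratio of Itgb1 was 0.114 in AFT024 (0.106 to 0.122) and 0.103 in BFC012 (0.0973 to 0.108). In BFC012 exosomes Lamb2, at 29.4 RPKM, was above it. The gene lies at chr8:128685654-128733200 on the plus strand of GRCm38 in GENCODE M21.

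Among the alpha chains Itga5, the fibronectin-binding partner of beta1, was far higher in AFT024. It had 21516 reads in cells of AFT024 and 2528 in those of BFC012, and 291 in AFT024 exosomes against 121 in BFC012 exosomes. AFT024 was 7.92 times as high in cells (7.60 to 8.26) and 4.20 times as high in exosomes (3.39 to 5.24). Of the 17 genes, Itga5 also had the lowest exosome-to-cell ratio in AFT024, at 0.0789 (0.0700 to 0.0886), against 0.149 in BFC012 (0.123 to 0.179), so the intervals of the lines lay apart. Itga5 lies at chr15:103344286-103366763 on the minus strand.

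Itgb7, the beta7 chain that leukocytes pair with alpha4 or alphaE, was read almost exclusively in AFT024. Its reads were 220 in AFT024 cells, 2 in BFC012 cells, 119 in AFT024 exosomes and 6 in BFC012 exosomes. The AFT024-to-BFC012 ratio was 102 in cells (28.0 to 851) and 34.7 in exosomes (15.5 to 96.3). Exosomes were above cells in both lines, with ratios of 3.16 (2.50 to 3.96) in AFT024 and 9.32 (1.67 to 94.4) in BFC012, or 1.14 and 1.07 in FPKM with 1 added. Both usual partners were scarce: Itga4 had at most 15 reads in a group and Itgae at most 4. Ptprc, the pan-leukocyte marker, had 1 or 2 reads in every group, and the leukocyte list summed to 196 and 210 reads in the cells of AFT024 and BFC012. Most of these were reads of Cd68 (150 and 89) and Coro1a (12 and 81), which went opposite ways between the lines. Itgb7 lies at chr15:102215995-102231944 on the minus strand, 1.11 Mb from Itga5, and no other member lies between them.

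Itga11, the alpha11 chain of a collagen receptor with beta1, went the opposite way. It had 543 reads in BFC012 cells and 133 in BFC012 exosomes, against 5 and 1 in the same sample types of AFT024. The AFT024-to-BFC012 ratio was 0.00857 in cells (0.00277 to 0.0201) and 0.0131 in exosomes (0.00033 to 0.0745). Within BFC012 the exosome-to-cell ratio was 0.761 (0.625 to 0.922). In AFT024 it was 1.17, with an interval of 0.0247 to 10.4 that few reads leave wide. Itga11 passed the read minimum only through BFC012, and Itgb7 and Itga7 only through AFT024. A difference between the lines was therefore fixed for these 3 genes by that minimum. Itga11 lies at chr9:62677826-62783982 on the plus strand.

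Promoter sequence of these 4 genes is shown because Itga5 and Itgb7 were higher in AFT024 and Itga11 in BFC012, while Itgb1 was nearly the same in both lines. Each sequence is from RefSeq (GRCm38.p6), written 5′ to 3′ on the gene's strand, and runs up to the first start annotated in RefSeq or GENCODE M21, so that it holds no transcribed base. Capitals mark GC boxes (GGGCGG on either strand). The Itga5 window is chr15:103366792-103367041 (minus strand), that of Itgb7 chr15:102231945-102232185 (minus strand), that of Itga11 chr9:62677605-62677825 (plus strand) and that of Itgb1 chr8:128685404-128685653 (plus strand).
Itga5: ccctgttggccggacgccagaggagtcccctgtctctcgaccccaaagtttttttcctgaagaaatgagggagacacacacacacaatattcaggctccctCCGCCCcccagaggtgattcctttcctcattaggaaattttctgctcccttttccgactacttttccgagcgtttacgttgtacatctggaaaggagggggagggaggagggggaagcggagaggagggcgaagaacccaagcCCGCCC
Itgb7: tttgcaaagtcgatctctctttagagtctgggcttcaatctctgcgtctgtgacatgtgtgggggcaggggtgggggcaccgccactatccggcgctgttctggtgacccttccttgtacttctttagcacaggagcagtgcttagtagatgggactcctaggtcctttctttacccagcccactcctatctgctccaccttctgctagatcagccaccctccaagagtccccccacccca
Itga11: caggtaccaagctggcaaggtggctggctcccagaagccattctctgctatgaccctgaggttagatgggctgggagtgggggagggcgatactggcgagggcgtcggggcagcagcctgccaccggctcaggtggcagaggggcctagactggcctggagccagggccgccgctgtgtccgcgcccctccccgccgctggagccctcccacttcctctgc
Itgb1: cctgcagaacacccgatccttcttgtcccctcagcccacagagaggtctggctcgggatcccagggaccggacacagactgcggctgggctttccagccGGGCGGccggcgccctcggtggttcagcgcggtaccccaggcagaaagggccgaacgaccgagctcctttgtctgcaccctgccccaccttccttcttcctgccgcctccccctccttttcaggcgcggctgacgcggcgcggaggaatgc
The motifs searched on both strands were the GC box GGGCGG, the TATA box as TATAAA, the CCAAT box by its name's letters and the AP-1 site as TGANTCA. None holds the letters of another. Itga5 had 2 GC boxes and Itgb1 had 1, and none of the motifs was found in the Itgb7 and Itga11 windows. Of all 32851 promoter windows of 250 bases in the table, 32.7% held a GC box, 12.4% a TATA box, 33.8% a CCAAT box and 6.75% an AP-1 site. Of 26 windows of the 23 members with an entry, 9 held a GC box, 0 a TATA box, 4 a CCAAT box and 1 an AP-1 site. A match describes the letters only.

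The laminin-binding alpha chains Itga3, Itga6 and Itga7 did not follow a single pattern. Itga3 had 4826 reads in cells of AFT024 and 5608 in those of BFC012, and 403 in AFT024 exosomes against 296 in BFC012 exosomes. In reads the lines were thus close in cells, with a ratio of 0.801 (0.771 to 0.833), and apart in exosomes, with a ratio of 2.38 (2.04 to 2.77). In FPKM the ratio between exosomes was smaller, at 1.81, within 2-fold. Its exosome-to-cell ratio was 0.487 in AFT024 (0.439 to 0.539) and 0.164 in BFC012 (0.145 to 0.184).

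Itga6 was higher in AFT024 in both sample types. Its reads were 3083 in AFT024 cells, 347 in BFC012 cells, 212 in AFT024 exosomes and 42 in BFC012 exosomes. The AFT024-to-BFC012 ratio was 8.27 in cells (7.40 to 9.27) and 8.82 in exosomes (6.31 to 12.6), intervals that overlap. In FPKM the ratios were smaller, at 3.22 and 3.20. Itga6 was also lower in exosomes than in cells by a like ratio in the lines, 0.401 (0.347 to 0.461) and 0.376 (0.266 to 0.519). Itga7, best known from muscle, had few reads: 148 in AFT024 cells, 13 in BFC012 cells, 24 in AFT024 exosomes and 13 in BFC012 exosomes. Its AFT024-to-BFC012 ratio was 10.6 (6.01 to 20.4) in cells and 3.23 (1.58 to 6.90) in exosomes. The exosome-to-cell ratio of Itga7 was 0.946 in AFT024 (0.588 to 1.46) and 3.11 in BFC012 (1.33 to 7.28).

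Itgav, the alpha chain of the RGD-binding integrins, had 10463 and 6287 reads in AFT024 and BFC012 cells and 302 and 411 in their exosomes. The lines stayed within 2-fold, with ratios of 1.55 (1.501 to 1.60) in cells and 1.28 (1.10 to 1.49) in exosomes. Exosomes were lower than cells in both, with ratios of 0.168 (0.150 to 0.189) and 0.203 (0.183 to 0.224). Exons of Itgav share 634 bases with Gm13684 on the opposite strand, where reads of both cannot be told apart without strand. Its partner Itgb5 had 5673 and 2202 reads in AFT024 and BFC012 cells and 414 and 437 in their exosomes. AFT024 cells were 2.40 times as high (2.28 to 2.52), and exosomes of that line 1.66 times as high (1.44 to 1.90). The Itgb5 exosome-to-cell ratio was 0.426 in AFT024 (0.384 to 0.471) and 0.617 in BFC012 (0.555 to 0.684).

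Itgb3 and Itga2b, the chains of the platelet fibrinogen receptor, had as many scaled reads in exosomes as in cells, or more, in both lines. Itgb3 had 350 reads in AFT024 cells, 79 in BFC012 cells, 118 in AFT024 exosomes and 148 in BFC012 exosomes. Its exosome-to-cell ratio was 1.97 in AFT024 (1.58 to 2.43) and 5.82 in BFC012 (4.40 to 7.75). Itga2b had 864, 517, 196 and 474 reads in the same order, and ratios of 1.32 (1.13 to 1.55) and 2.85 (2.51 to 3.23). Both chains thus had the higher ratio in BFC012. In AFT024 the direction depended on the measure, since with 1 added the FPKM ratio was 0.853 for Itgb3 and 0.942 for Itga2b, and library-size scaling gave 0.989 for Itga2b. AFT024 cells were 4.12 times as high as BFC012 cells in Itgb3 (3.22 to 5.33) and 1.56 times in Itga2b (1.39 to 1.74). The platelet list, Itga2b included, summed to 1198, 557, 212 and 513 reads in that order, and Itga2b itself made up most of each sum. Of its other genes, Ppbp had 263, 26, 1 and 3 reads and Gp1bb 71, 13, 14 and 32. Pf4 had at most 4 reads in a group, and Gp9, a platelet glycoprotein, had 0 in every group. The part of such cells in the result was not tested.

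Itga10 and Itgb8 completed the integrins with 100 or more reads. Itga10, a collagen receptor chain known from cartilage, had 41 reads in AFT024 cells, 40 in BFC012 cells, 34 in AFT024 exosomes and 45 in BFC012 exosomes. Exosomes were thus higher in both lines relative to depth, by ratios of 4.84 (2.98 to 7.81) and 3.50 (2.23 to 5.49), while both intervals between the lines held 1. The annotation places 1739 exonic bases of Itga10 within Gm42957, a gene on the same strand, so its reads may be shared with that gene. Itgb8, the partner of alphav on latent TGF-beta, had 175, 158, 39 and 54 reads in the same order. Its intervals held 1 in all 4 comparisons.

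Composition of the integrins differed between the lines and between cells and exosomes. Per kilobase of exon, Itga5 made up 64.9% of the alpha chain level in AFT024 cells and 22.0% in BFC012 cells, where Itga3 led with 42.1% against 12.6% in AFT024 cells. In AFT024 exosomes Itga3 led with 31.0% of the alpha level, followed by Itga5 with 25.9%, and Itga2b was 15.8%. In BFC012 exosomes Itga2b led with 35.4%, and Itga3 was 21.1%. Shares of the deposited FPKM were different in exosomes: Itga5 was 6.71% of the alpha chains in AFT024, and Itgav led with 26.2% in AFT024 and 35.8% in BFC012, against 12.4% and 15.6% per kilobase from reads. Itgb1 made up 86.2% and 94.2% of the beta chain level in AFT024 and BFC012 cells, but 53.6% and 68.9% in their exosomes. Itgb5 took 12.5% and 5.43% in those cells and 29.0% and 23.9% in those exosomes. As shares of reads, Itga5 was 52.4% of alpha chain reads in AFT024 cells (exact interval 52.0 to 52.9) and 15.9% in BFC012 cells (15.3 to 16.4).

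**Figure D2:**
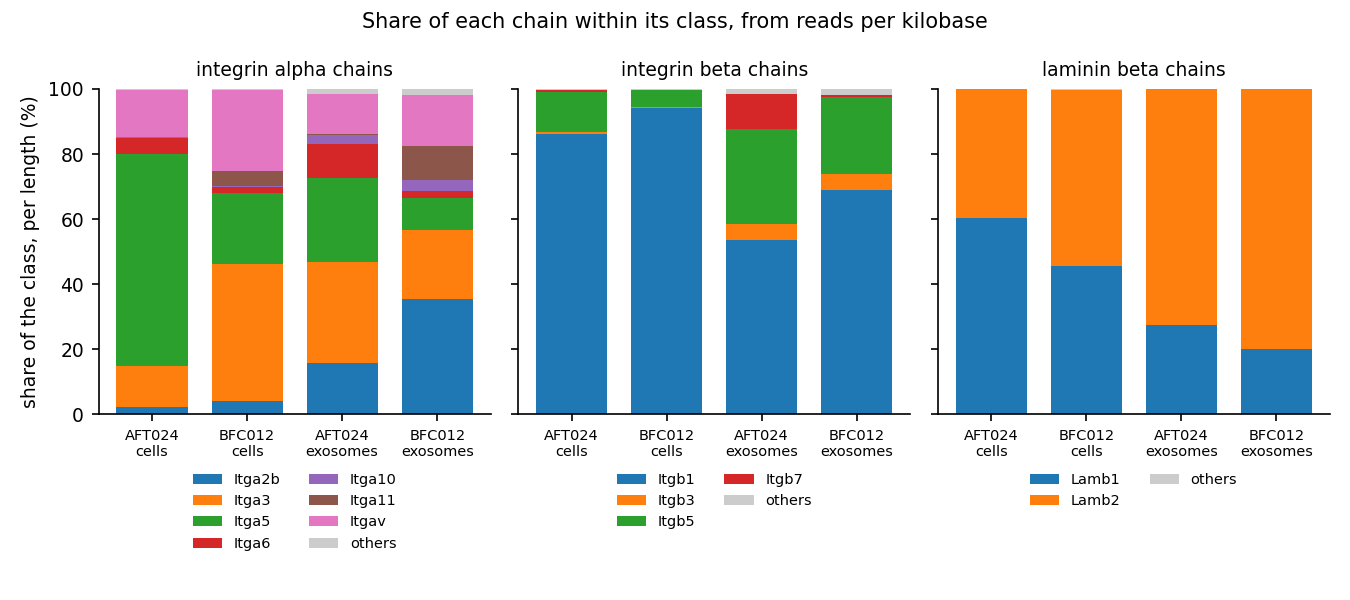
Share of each chain in the summed level of its class, in percent of reads per kilobase of exon, for the 4 groups. Stacked bars reach 100%, grey holds the chains under 3% in every group, and laminin alpha is left out because Lama5 is over 99% in each group. Itgb1 and Lamb1 take smaller shares in exosomes than in cells of both lines.

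Among the laminins, Lama5, Lamb1, Lamb2 and Lamc1, the chains of laminin-511 and laminin-521, carried most of the reads. Lama5 was the only laminin alpha chain with 100 or more reads and made up over 99% of laminin alpha reads in each group. It had 6253 reads in AFT024 cells, 9230 in BFC012 cells, 559 in AFT024 exosomes and 1960 in BFC012 exosomes. In reads BFC012 was the higher line, with AFT024-to-BFC012 ratios of 0.631 (0.611 to 0.651) in cells and 0.498 (0.453 to 0.548) in exosomes. In exosomes the FPKM turned this direction, with 1.59 after adding 1. The exosome-to-cell ratio was 0.522 in AFT024 (0.477 to 0.569) and 0.660 in BFC012 (0.628 to 0.693).

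Lamc1, the common gamma chain, was also close between the lines. Its reads were 14819 and 15068 in AFT024 and BFC012 cells and 802 and 1208 in their exosomes. The lines were close, with ratios of 0.915 (0.895 to 0.936) in cells and 1.16 (1.06 to 1.27) in exosomes. Exosomes were lower than cells in both lines, with ratios of 0.316 (0.294 to 0.339) in AFT024 and 0.249 (0.235 to 0.264) in BFC012.

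The beta chains Lamb1 and Lamb2, which are alternatives in a trimer, parted between cells and exosomes. Lamb1 had 17573 reads in AFT024 cells, 7088 in BFC012 cells, 632 in AFT024 exosomes and 1206 in BFC012 exosomes. Lamb2 had 7100, 5159, 1032 and 2921 reads in the same order. The exosome-to-cell ratio of Lamb1 was 0.210 in AFT024 (0.194 to 0.227) and 0.529 in BFC012 (0.497 to 0.562). For Lamb2 it was 0.848 (0.794 to 0.905) and 1.76 (1.68 to 1.84), on opposite sides of 1. In FPKM with 1 added both Lamb2 ratios were below 1, at 0.361 and 0.898. The AFT024-to-BFC012 ratio was 2.31 for Lamb1 and 1.28 for Lamb2 in cells, and 0.916 and 0.617 in exosomes. Per kilobase of exon, Lamb1 made up 60.3% and 45.5% of the laminin beta level in AFT024 and BFC012 cells, against 27.3% and 20.2% in their exosomes. Lamb1 was thus the smaller of the pair in the exosomes of both lines. Per kilobase it was also the smaller in BFC012 cells, where Lamb2 was 54.1%. As a share of reads in BFC012 cells, Lamb1 was the larger, at 57.7%. In the deposited FPKM the shares of Lamb1 were 71.2% and 57.5% in AFT024 and BFC012 cells and 37.8% and 28.7% in their exosomes.

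The other 19 members had fewer than 100 reads over the 4 groups, from 65 for Itga1 down to 1 for Itgad. They include the leukocyte integrins Itgal, Itgam, Itgax, Itgad and Itgb2, of which Itgb2 had the most reads in a group (19), and the collagen receptor chains Itga1 and Itga2 (41 and 1). The largest read numbers in a group were 15 for Itga4, 8 for Itga8, 5 for Itga9, 4 for Itgae, 17 for Itgb4 and 23 for Itgb6. Among laminin chains they were 1 for Lama1, 18 for Lama2, 5 for Lama3, 28 for Lama4, 42 for Lamb3 and 19 for Lamc3. Of the 36 members, 10 had 0 reads in AFT024 exosomes and 4 in BFC012 exosomes, 0 in AFT024 cells and 4 in BFC012 cells. At these depths 0 reads allow up to 3 reads, or 0.332 and 0.184 per 1000000 reads in the exosomes of AFT024 and BFC012 and 0.0762 and 0.0836 in their cells.

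Exosomes against cells were then counted over the 17 genes with 100 or more reads, beside all 12227 genes that met the same minimum. In AFT024, 8 of the 17 were lower by 2-fold or more (28.9% of all genes were) and 2 were higher (20.1% of all genes). In BFC012, 6 were lower (27.0%) and 5 higher (22.6%). On FPKM with 1 added, 0 were higher in either line. Those lower in both lines were Itga3, Itga5, Itga6, Itgav, Itgb1 and Lamc1, and those higher in both were Itga10 and Itgb7. Itgb7 and Itga7 passed the read minimum only through AFT024. Their higher calls in BFC012 rested on 6 exosome against 2 cell reads for Itgb7 and 13 against 13 for Itga7. In FPKM with 1 added Itga6 (0.575 and 0.618) and Itgav in BFC012 (0.598) were lower by less than 2-fold. The remaining calls on scaled reads were made in 1 line: Itgb5 and Lamb1 lower in AFT024, and Itga2b, Itga7 and Itgb3 higher in BFC012. In BFC012 Itgb5 and Lamb1 also passed 2-fold under library-size scaling (0.436 and 0.373) and in FPKM with 1 added (0.350 and 0.289). In FPKM with 1 added Lama5 in BFC012 (0.366) and Lamb2 in AFT024 (0.361) were lower past 2-fold as well. The median exosome-to-cell ratio of the 17 was 0.522 in AFT024 and 0.660 in BFC012, against 0.823 and 0.913 over all 12227 genes. Itga3 in AFT024 (0.487) was just past 2-fold and was counted. Itgb3 in AFT024 (1.97), Lama5 in AFT024 (0.522) and Lamb1 in BFC012 (0.529) just missed it.

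**Figure D3:**
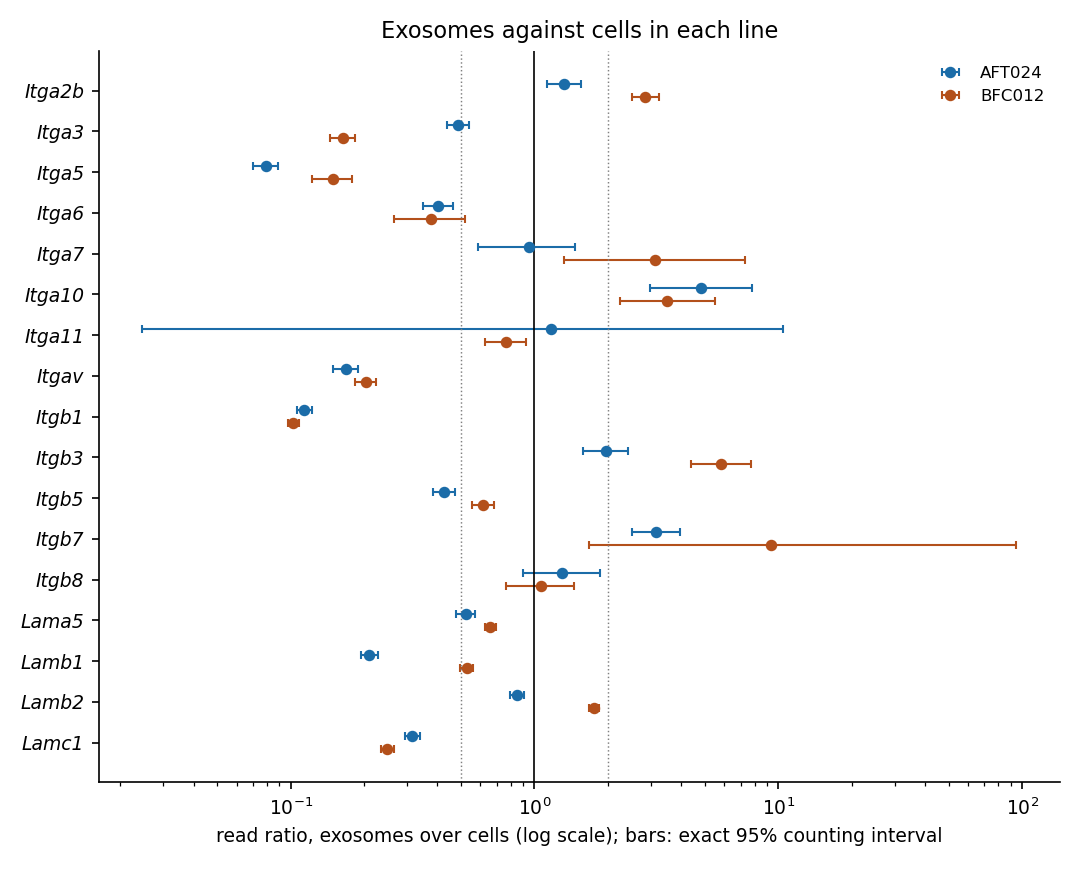
Exosome-to-cell read ratio of the 17 genes in AFT024 and in BFC012 on a log axis, with exact 95% counting intervals and dotted lines at 2-fold. Itgb1, Itga5 and Itgav lie far below 1 in both lines, and Lamb2 lies on opposite sides of 1 in the lines, which deposited FPKM do not show.

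The exosome-to-cell ratio was also compared between the lines by whether their counting intervals lay apart. The AFT024 ratio was above that of BFC012 for Itga3 and Lamc1 (2 of 17; 19.0% of all genes). It was below for Itga2b, Itga5, Itgb3, Itgb5, Lama5, Lamb1 and Lamb2 (7 of 17; 31.4% of all genes). For Lama5 the order of the lines turned in FPKM with 1 added, at 0.908 in AFT024 and 0.366 in BFC012. Intervals overlapped for the other 8. Itgb1 was among these, although its intervals were narrow.

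Between the lines, AFT024 cells were higher than BFC012 cells by 2-fold or more for 7 of the 17 genes (9.97% of all genes) and lower for 1 (7.79%). The 7 were Itga5, Itga6, Itga7, Itgb3, Itgb5, Itgb7 and Lamb1, and the 1 was Itga11. Itga7, Itgb7 and Itga11 passed the read minimum through 1 line only, so nothing is read from their place in these counts. In exosomes AFT024 was higher for 5 (14.1%), which were Itga3, Itga5, Itga6, Itga7 and Itgb7, and lower for 2 (14.9%), Itga11 and Lama5. Under library-size scaling the split was 5 higher and 1 lower. Apart from Itga7, Itgb7 and Itga11, only Itga5 and Itga6 were past 2-fold in both sample types, higher in AFT024. In FPKM with 1 added they stayed so, at 7.36 and 2.92 in cells and 2.11 and 2.71 in exosomes. Within 2-fold were then Itgb3 (1.71) and Itga7 (1.68) in cells. In exosomes they were Itga3 (1.57), Itga7 (1.16), Itga11 (0.517) and Lama5 (1.59). The median AFT024-to-BFC012 ratio of the 17, with Itga7, Itgb7 and Itga11 included, was 1.55 in cells and 1.28 in exosomes, against 0.996 and 0.947 over all genes. The read minimum had set Itga7 and Itgb7 above 1 and Itga11 below it, so this median depends in part on that minimum. Each of the 4 comparisons shares its groups with others, so their counts are not independent.

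**Figure D4:**
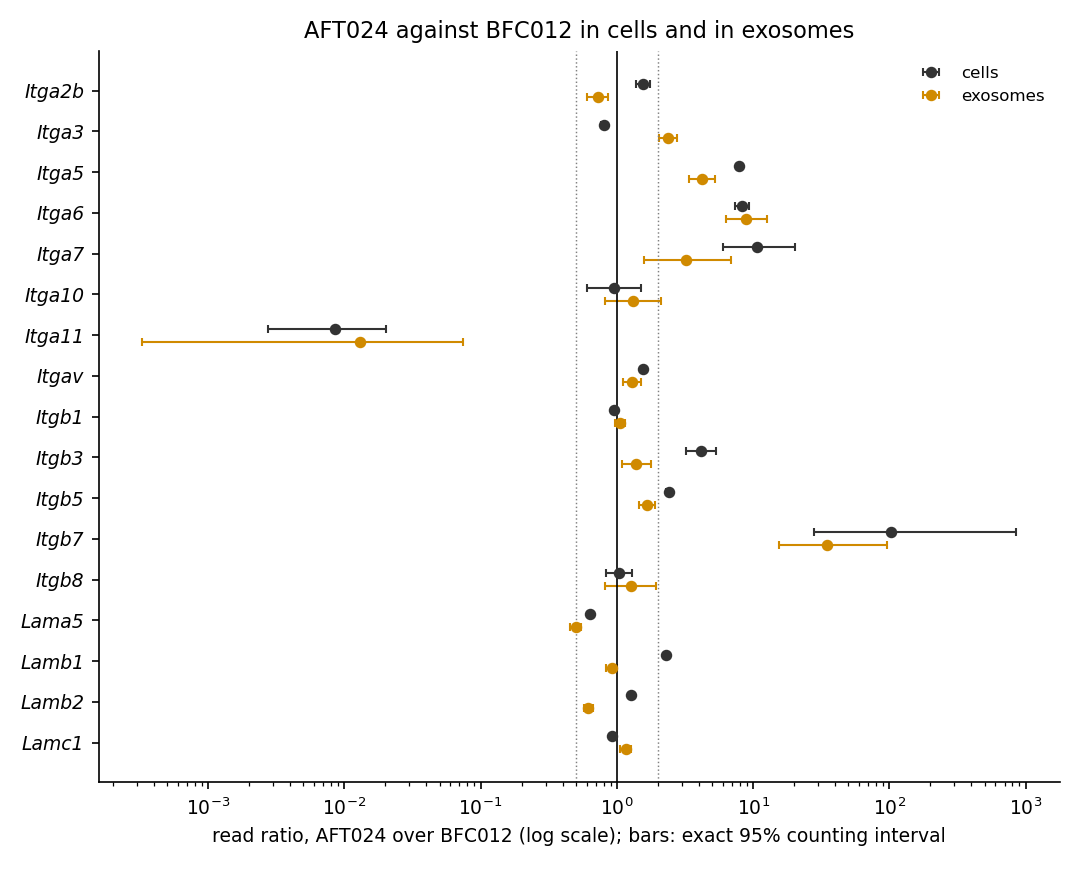
AFT024-to-BFC012 read ratio of the 17 genes in cells and in exosomes on a log axis, with exact 95% counting intervals and dotted lines at 2-fold. Itgb7 lies farthest above 1 and Itga11 farthest below it in both sample types, while Itgb1 stays close to 1. The read minimum fixed a line difference for Itgb7, Itga7 and Itga11, which passed it through 1 line only.

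Proteins that join integrins to actin and carry their signals inside the cell form the list of cytoplasmic partners, of which 27 of 30 genes had 100 or more reads. In AFT024 11 were lower in exosomes and 3 higher (28.9% and 20.1% of all genes), and in BFC012 10 were lower and 7 higher (27.0% and 22.6%). The talin gene Tln1 was lower, with ratios of 0.408 in AFT024 and 0.302 in BFC012, as was vinculin, Vcl, with 0.226 and 0.234. Tns1, a tensin, and Kank2, a talin-binding protein, were far higher in exosomes, with ratios of 16.9 and 12.7 for Tns1 and 26.5 and 14.3 for Kank2. Tns1 had 11942 reads in AFT024 exosomes against 4112 in the deeper AFT024 cells. Between the lines' cells 2 of the 27 were higher in AFT024 and 1 lower (9.97% and 7.79% of all genes). In exosomes 7 were higher in AFT024 and 4 lower (14.1% and 14.9%), with filamin, Flna, at 3.26 against 1.19 in cells.

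The basement membrane partners of laminins (15 of 15 genes with 100 or more reads) lay mostly below the cells in exosomes. In AFT024 12 were lower and 0 higher (28.9% and 20.1% of all genes), and in BFC012 9 were lower and 2 higher (27.0% and 22.6%), the latter being Smoc1 and Smoc2. The nidogen gene Nid1, whose protein links laminin to collagen IV, had exosome-to-cell ratios of 0.0559 in AFT024 and 0.0782 in BFC012. For the collagen IV chain Col4a1 they were 0.0365 and 0.0203. AFT024 cells were higher than BFC012 cells for 8 of the 15, among them Nid1 at 3.50 and Col4a1 at 2.11, and lower for 1, Agrn (9.97% and 7.79% of all genes). In exosomes 7 were higher in AFT024 and 3 lower (14.1% and 14.9%). The median ratio of the list was 0.152 in AFT024 and 0.363 in BFC012. In the same order the ratios were 0.848 and 1.76 for Lamb2 and 0.522 and 0.660 for Lama5. They were 0.210 and 0.529 for Lamb1 and 0.316 and 0.249 for Lamc1. Lamc1 in BFC012 was thus below the median of the list, and the other laminin ratios were above it.

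Laminin receptors other than integrins had 10 of 10 genes with 100 or more reads, of which 7 were lower and 1 higher in AFT024 exosomes (28.9% and 20.1% of all genes) and 7 lower and 2 higher in BFC012 exosomes (27.0% and 22.6%). Cd44 and the syndecan gene Sdc4 were lower in both, with ratios of 0.0689 and 0.0661 for Cd44 and 0.0855 and 0.0877 for Sdc4. Rpsa, which encodes a ribosomal protein also known as a laminin receptor, had ratios of 5.17 in AFT024 and 1.70 in BFC012. Lgals3, galectin-3, was 7.83 times as high in AFT024 as in BFC012 cells and 31.7 times as high in exosomes. In cells 3 of the 10 were higher in AFT024 and 2 lower (9.97% and 7.79% of all genes), and in exosomes 4 and 2 (14.1% and 14.9%).

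Of the other integrin ligands, 16 of 20 genes had 100 or more reads. In exosomes 14 were lower and 1 higher in AFT024 (28.9% and 20.1% of all genes), and 9 were lower and 1 higher in BFC012 (27.0% and 22.6%). The 1 higher in AFT024 was Cdh1, on 6 exosome against 3 cell reads. Cdh1 passed the read minimum only through BFC012, with 756 reads in cells and 103 in exosomes. Fn1, fibronectin, the ligand of alpha5 and beta1, had 157662 and 184478 reads in AFT024 and BFC012 cells and 3140 and 20180 in their exosomes. The lines' cells were thus close in Fn1, with an AFT024-to-BFC012 ratio of 0.796, while Itga5 stood at 7.92. In exosomes the ratio was 0.272 for Fn1 and 4.20 for Itga5. Tnc, tenascin-C, had an exosome-to-cell ratio of 0.0319 in AFT024 and 1.18 in BFC012. Between the cells 7 of the 16 were higher in AFT024 and 1 lower (9.97% and 7.79% of all genes), and between the exosomes 6 and 6 (14.1% and 14.9%). Cdh1 was the 1 lower in cells and was among the 6 lower in exosomes. The read minimum had fixed its line difference, so nothing is read from its place in these counts.

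Tetraspanins and other surface partners of integrins had 10 genes with 100 or more reads, of 11 listed and 10 found. In exosomes 8 were lower in AFT024 (28.9% of all genes) and 9 in BFC012 (27.0%), and 0 were higher in either line. Cd151, the tetraspanin that binds laminin-binding integrins, had ratios of 0.309 and 0.171, and Cd9 had 0.337 and 0.0877. 0 of the 10 passed 2-fold between the lines' cells, and 4 (Cd47, Cd63, Cd9 and Plaur) were higher in AFT024 exosomes (14.1% of all genes).

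The deposited FPKM and the level from reads were set side by side for the members. For Itgb1 they were close in cells (267 and 285 FPKM, 279 and 299.6 RPKM) and further apart in exosomes (11.4 and 14.1 FPKM, 23.8 and 21.7 RPKM). The median ratio of FPKM to RPKM over the 17 genes was 1.03 in AFT024 cells and 0.988 in BFC012 cells, but 0.685 in AFT024 exosomes and 0.735 in BFC012 exosomes. At the median, FPKM thus put exosomes lower than reads do. Not every gene followed: Itga6 had FPKM 2.34 to 12.4 times the RPKM, with 3.52 FPKM in BFC012 exosomes from 42 reads. For Itgav FPKM were 4.09 and 5.18 times the RPKM in AFT024 and BFC012 exosomes and 1.30 and 1.28 times in the cells. Lama5 in AFT024 also had the higher ratio of FPKM to RPKM in exosomes.

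For Lama5 the direction between the exosomes depended on the measure. It was lower in AFT024 than in BFC012 exosomes in reads (ratio 0.498), but its FPKM were 10.3 and 6.11. Itgam, the alphaM chain of myeloid cells, had 3.54 to 10.6 FPKM on 2 to 5 reads a group, and 3450 of its exonic bases overlap Gm49368 on the same strand. Itga10 was listed at 0 FPKM in both lines' cells with 41 and 40 reads.

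In the order AFT024 cells, BFC012 cells, AFT024 exosomes and BFC012 exosomes, FPKM were 21.8, 27.7, 4.25 and 2.35 for Itga3, 32.2, 20.9, 12.7 and 12.1 for Itgav and 10.3, 7.19, 9.68 and 9.39 for Itga2b. For Itgb5 they were 42.0, 17.7, 7.04 and 5.53, and for Itgb7 1.84, 0.0181, 2.24 and 0.0849. For Itga11 they were 0.0538, 2.60, 0.0350 and 1.0005. These FPKM come from the same libraries, and the read minimum had fixed the line difference of Itgb7 and Itga11. They therefore add no support to it. With 1 added, the AFT024-to-BFC012 FPKM ratio of Itga11 in exosomes was 0.517, within 2-fold. For Lamb1 the FPKM were 65.4, 28.8, 5.39 and 7.60, for Lamb2 26.3, 21.04, 8.85 and 18.8, and for Lamc1 41.3, 45.6, 12.0 and 11.8. Itgb3, Itgb8 and Itga7 stayed at or below 1.33 FPKM in every group.

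**Figure D5:**
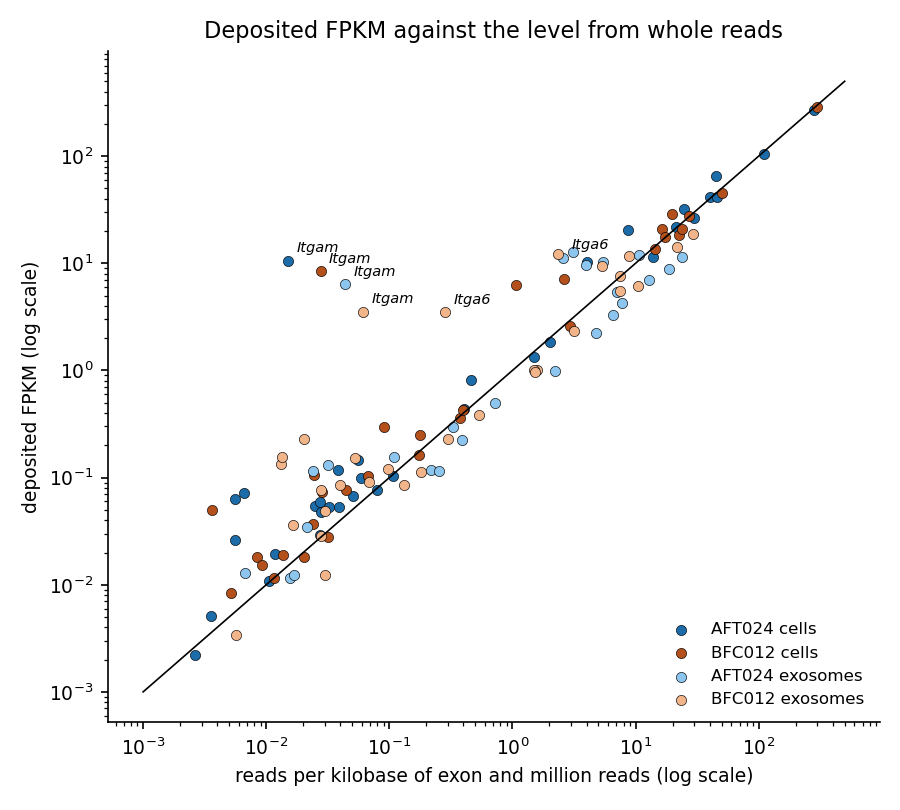
Deposited FPKM against RPKM from reads, both on log axes, for members with reads and FPKM above 0, with 1 point per member and group and the line of equality. Itgam, with 2 to 5 reads a group, lies far above the line, as does Itga6 in exosomes.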

How the data were processed

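PolyA RNA of 4 groups (cells and exosomes of AFT024 and BFC012) was used, 8 samples in the labels, with 1 merged value per group in the tables. The submitters' processing notes name TopHat, Cufflinks, Bowtie and the build mm10. Their roles and versions, the counter, the annotation and any use of strand in counting were not given in the sources used here. Per the file headers, the deposited table of all groups holds FPKM. Values of the authors' pairwise tables are reads over a factor set for each pair, beside a q-value of the authors' Fisher test, which is not used here. There were 16224 genes in the table of AFT024 exosomes against cells, 43629 in each other read table and 24544 with FPKM.

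Dividing each column by its smallest step gave whole reads for 100% of values, within 0.01, and 0 genes differed between tables. Reads were scaled by median-of-ratios size factors over 14905 genes with reads in all groups. Ratios carry exact 95% limits (Clopper-Pearson) from how a gene's reads divide between both groups, which cover counting error only. Genes with 100 or more reads over the groups were kept (12227), and 2-fold was counted. RPKM used exon lengths of GENCODE M21 (GRCm38, the same assembly as mm10). Promoter windows came from RefSeq (GRCm38.p6). Python 3.11.15, pandas 2.3.3 and scipy 1.17.1 were used. The interval code was run on reads simulated with counting error alone. Because the intervals assume that same error, the run says nothing on other error in these data.

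The members and lists were chosen with earlier results of these data known. Of the genes that match by symbol, 1 is not reported here. Members with 100 reads or 1 FPKM are named with values, and at most 6 genes of a list. RPKM, the shares within a class, the promoter windows and the comparison of intervals between lines were added after the values were seen. Alternatives were library-size scaling, the authors' pair scaling, other folds, no read minimum or 1000 reads, and FPKM with 1 or 0.1 added. Small RNA was not used here. Unused columns of values numbered 0.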

Additional observations from a re-analysis of the deposited data

Results flagged for a closer look

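Lamb2 moved in opposite directions between exosomes and cells of the lines. Its exosome-to-cell ratio was 0.848 in AFT024 and 1.76 in BFC012, so that of AFT024 was 0.482 times that of BFC012. With 1 value per group, the difference between the lines was not tested. In FPKM with 1 added, both ratios (0.361 and 0.898) were below 1, so the lines did not differ in direction there.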

How the results depend on the processing

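Counts of members past 2-fold depended most on the read minimum. With no minimum, genes with few reads entered. For AFT024 exosomes against cells the count was then 8 higher and 19 lower, and for BFC012 11 were higher. Between cells it was 17 higher and 5 lower in AFT024, and between exosomes 10 lower. With a minimum of 1000 reads, 0 were higher in exosomes of AFT024 and 1 in those of BFC012, 4 higher and 0 lower in AFT024 cells, and 3 higher and 1 lower in AFT024 exosomes. On FPKM with 1 added, 0 were higher in the exosomes of AFT024 and 0 in those of BFC012. Between the exosomes 3 were then higher and 1 lower in AFT024. The 1 lower was Lamb2 (0.498), while Itga11 (0.517) and Lama5 (1.59), lower past 2-fold in reads, were not counted. With 0.1 added the counts were 1, 2 and 3 higher in these comparisons. Library-size scaling left 1 lower in AFT024 exosomes, and at 1.5-fold 2 were lower in AFT024 cells. The other 35 counts stayed within 1.5 times.

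In FPKM, 1 ratio past 2-fold changed direction, that of Lama5 between exosomes (1.59 with 1 added, 1.68 with 0.1). Ratios within 2-fold crossed 1 too, among them Itgb3 (0.853) and Itga2b (0.942) in AFT024 exosomes and Lamb2 (0.898) in BFC012 exosomes against cells with 1 added. The cause was not tested. Of the single ratios, 58 stayed within their counting interval under the authors' pair scaling and 40 under library-size scaling, while 10 and 28 moved further. In FPKM 15 stayed and 52 moved with 1 added, and 18 stayed and 49 moved with 0.1. No paired analysis was possible because each group has 1 merged value, and for the same reason no replicate could be left out. Depth limits the members under 100 reads, for which a difference was often not detectable.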
